A study of Mus musculus with 3 samples.

Results

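The genes described here belong to the integrated stress response and to the serine and one-carbon pathway that it serves. The group was given as 32 gene symbols chosen for their role, with earlier results of these data known. Of them, 30 had a probe among the 23473 gene probes of the array, 1 probe each. *Pycr1* and *Gdf15* were not analysed here. All 30 probes carried a valid signal on every array. Mouse intrahepatic biliary epithelial cells (BECs), cultured from female BALB/c mice that were 8 weeks old, were measured on 3 one-colour microarrays. One array held BECs made senescent by serum depletion, another BECs made senescent by 200 μM glycochenodeoxycholic acid (GCDC), a bile acid, and the third control BECs in medium with Nu-serum, EGF, insulin and forskolin. The labels give a treatment time of 4 to 7 days, and the text that describes the arrays gives 7 days. Every array held RNA pooled from 2 independent experiments, so each condition had 1 measurement, no spread between replicates was available, and no p-value was computed. The level of a gene is the scaled intensity above the blank spots that the authors deposited, with a median of 25 on each array. A gene is said to have risen or fallen only where it changed by over 2-fold.

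The integrated stress response begins with kinases that phosphorylate the translation factor eIF2. HRI, encoded by *Eif2ak1*, responds to loss of heme and to mitochondrial stress, and GCN2, encoded by *Eif2ak4*, to uncharged tRNA. General translation then slows while the mRNA of the transcription factor ATF4 is translated more, and ATF4 turns on genes for amino acid supply, serine synthesis and mitochondrial folate enzymes. Because ATF4 is raised by its translation, its mRNA can stay level while its targets rise. The medium of serum-depleted cells and the bile acid are different stresses, and the comparisons ask how these genes stood under each inducer of senescence.

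The 3 arrays were comparable in the share of probes above background. Between 86.1% and 89.2% of gene probes were valid, and the median valid signal lay 25.9 to 40.6 above the blanks, whose SD was 0.611 to 0.815. The cells carried the cholangiocyte cytokeratins, with *Krt7* at 19912 in serum depletion, 24866 in GCDC and 14723 in control BECs and *Krt19* at 11882, 27743 and 13440.0 in the same order. The 12 cholangiocyte markers measured were valid on every array and summed to 91533.5, 134935 and 85939.9, most of it from cytokeratins. Of the others, *Aqp1* was at 229, 86.4 and 776 and *Prom1* at 130, 231.5 and 671, both lower on the treated arrays, and *Sox9* was at 20.6, 23.1 and 16.7 and *Cftr* at 23.8, 28.6 and 25.6. The hepatocyte marker *Alb* was at 2.3, 3.4 and 3.66, near the background, and the 8 hepatocyte markers summed to 439, 175 and 128, of which *Ttr* made up 288, 50.4 and 36.9. The leukocyte marker *Ptprc* was at 1.8, 2.5 and 2.62. The 6 macrophage markers summed to 2373, 2914 and 1558, of which *Cd14* made up 2278, 2792 and 1469, and *Adgre1* was not valid on any array. The 6 mesenchymal markers summed to 81.1, 75.5 and 57.6. The 5 endothelial ones summed to 51.0, 55.9 and 24.3, of which *Kdr* made up 49.1, 50.8 and 20.4, and *Tek* was not valid on any array. The part of these markers in the results was not tested. In bulk RNA, fewer cells of a type and less RNA per cell cannot be told apart.

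**Figure D1:**
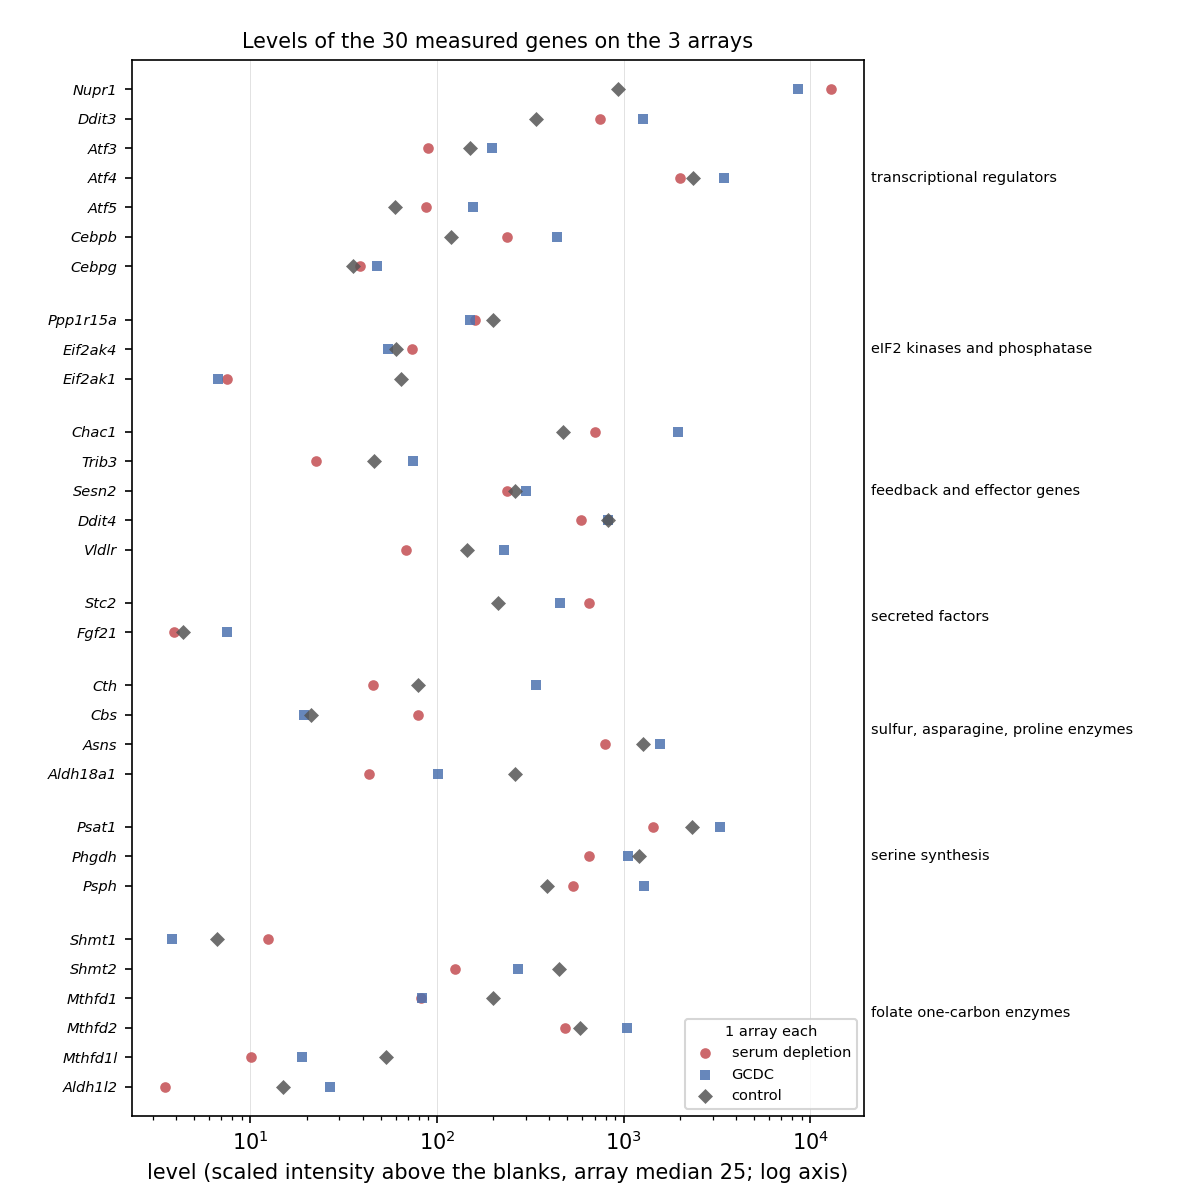
Level of each of the 30 measured genes (rows, grouped by role) on the serum depletion, GCDC and control arrays, on a log axis of scaled intensity above the blanks. Each point is 1 array. In 23 of the 30 rows the GCDC point lies to the right of the serum depletion point.

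Most genes of the group had lower levels in serum depletion than in GCDC. Set directly against each other, 13 of 30 genes lay more than 2-fold apart between the treated arrays, against 5.06% of all gene probes valid on both. Of these, 11 of 30 genes were more than 2-fold lower in serum depletion, against 2.88% of the 19751 probes. Another 2 were more than 2-fold higher, against 2.18% of all probes. The median log2 ratio was -0.86, against -0.08 over all probes. By sign, 23 of 30 genes were lower in serum depletion, as were 58.3% of all probes, and 22 or 23 were lower under the other scalings, filters and corrections. This ratio does not use the control array. The genes were chosen with earlier results of these data known, so the excess over all probes is not independent support. Among the 10460 probes with a mean level of at least 25, a limit chosen after seeing the data, 2.75% were lower by as much, 1.36% higher and 4.11% either, and of the 27 genes above that level 10 were lower, 1 higher and 11 either. Under normexp background correction with an offset of 50 and quantile normalization, 5 genes stayed lower and 1 higher, against 0.365% and 0.319% of all probes under that setting. In the remaining scalings, filters and corrections at the 2-fold threshold the counts were 8 to 11 lower and 2 higher.

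Against control the group split by treatment. In GCDC 8 of 30 genes rose and 4 fell, against 12.9% and 8.5% of 20087 probes. At a mean level of at least 25, 8 and 4 of 27 did, against 17.8% and 7.52% of probes. With serum depletion 4 rose and 8 fell, against 13.5% and 11.1% of 19809 probes, so the share that rose lay at the background. At a mean level of at least 25, 4 and 7 of 27 did, against 17.8% and 11.1% of probes. Medians of the log2 ratios were -0.29 for serum depletion and 0.46 for GCDC, against 0.16 and 0.24 over all probes. Both ratios were divided by the same control array. The counts against control moved with the scaling between arrays. In serum depletion 3 rose and 13 fell without scaling, against 5.91% and 19.7% of all probes. The same counts stood against 7.9% and 14.6% after quantile normalization and against 8.59% and 13.1% after cyclic loess. They were 3 and 9 at equal 75th percentiles, against 10.6% and 13.3%, and 6 and 6 when only probes valid on every array set the median, against 17.9% and 9.11%. In GCDC 6 rose and 7 fell without scaling, against 3.02% and 21.8% of all probes, so the share that fell then lay near the background. They were 7 and 6 after quantile normalization, against 6.93% and 11.3%, 7 and 5 after cyclic loess, against 6.53% and 11.2%, and 7 and 5 at equal 75th percentiles, against 8.58% and 11.1%. Leaving out the scaling shifted all genes alike, and the GCDC median was then -0.18 beside -0.41 over all probes. It was -0.03 beside 0.03 after quantile normalization and -0.05 beside 0.02 after cyclic loess. Among all changed probes, rises made up 55.0% in serum depletion and 60.3% in GCDC with the deposited levels, and 23.0% and 12.2% without scaling.

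**Figure D2:**
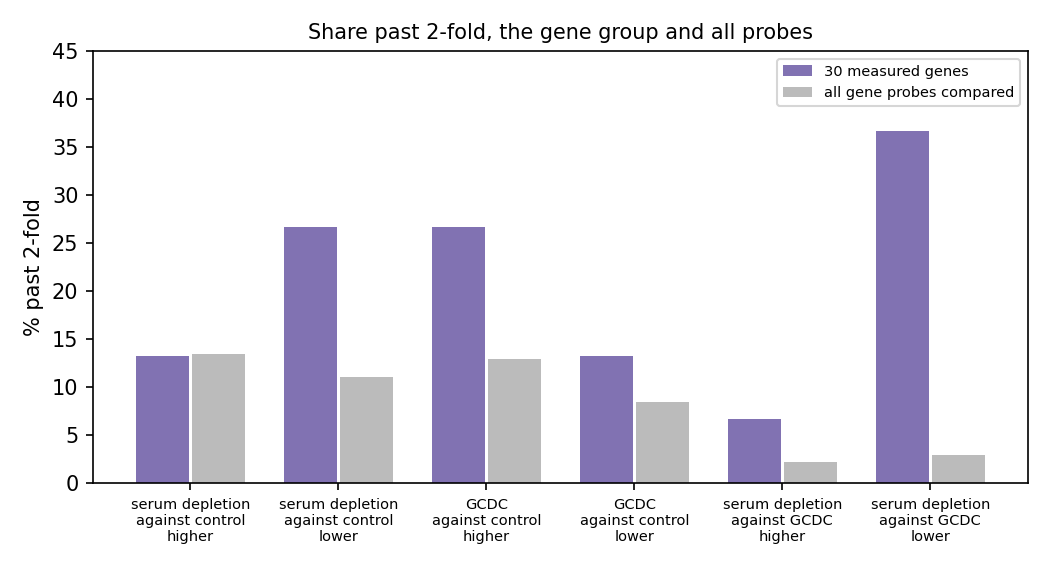
Percentage of the 30 measured genes and of all compared gene probes that lay more than 2-fold higher or lower in each of the 3 comparisons. The bars stand furthest apart for genes lower in serum depletion than in GCDC, 36.7% against 2.88%.

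ATF4 binds its targets together with C/EBP proteins or CHOP at a composite element of the form TGATGNAA, in which N is any base. The window from 250 bases before to 50 bases after each gene's start, taken from RefSeq on build GRCm38.p6, was searched on both strands. Windows were found for 28 of the 30 genes, but not for *Cth* and *Aldh1l2*. The element was present in 7 of them (25%), *Nupr1*, *Atf3*, *Chac1*, *Trib3*, *Vldlr*, *Asns* and *Fgf21*, and in 4.51% of all 27025 genes with a window (3.97% of windows). The cyclic AMP element TGACGTCA was present in *Ppp1r15a* among these genes and in 2.03% of genes. A match is a description of the letters and not a measured site. The genes were chosen for their role in a response that runs through ATF4, so their share with the element is not independent support. The sequences below are those of the genes with a match that were changed more than 2-fold on both treated arrays in 1 direction or that stood more than 2-fold apart between them. They run 5′ to 3′ on the strand of the gene, with the match in capitals, and each ends at the base before the annotated start, apart from *Trib3*, whose match lies in the first transcribed bases.
*Nupr1*, chr7:126625471-126625720, minus strand: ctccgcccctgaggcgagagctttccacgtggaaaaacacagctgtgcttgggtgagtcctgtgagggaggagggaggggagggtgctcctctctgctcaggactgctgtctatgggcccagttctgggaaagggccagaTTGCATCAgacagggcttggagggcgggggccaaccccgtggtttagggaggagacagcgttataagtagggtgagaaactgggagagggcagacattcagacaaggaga
*Atf3*, chr1:191183334-191183583, minus strand: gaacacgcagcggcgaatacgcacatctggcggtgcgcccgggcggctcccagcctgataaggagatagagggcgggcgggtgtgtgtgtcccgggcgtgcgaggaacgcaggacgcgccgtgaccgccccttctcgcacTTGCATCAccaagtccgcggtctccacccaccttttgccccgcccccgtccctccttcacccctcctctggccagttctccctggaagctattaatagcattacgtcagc
*Chac1*, chr2:119350992-119351241, plus strand: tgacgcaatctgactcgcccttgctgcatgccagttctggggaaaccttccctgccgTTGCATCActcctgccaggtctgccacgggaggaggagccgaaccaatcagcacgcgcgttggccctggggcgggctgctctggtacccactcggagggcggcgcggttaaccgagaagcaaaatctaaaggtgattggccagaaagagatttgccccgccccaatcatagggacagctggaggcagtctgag
*Vldlr*, chr19:27216770-27217019, plus strand: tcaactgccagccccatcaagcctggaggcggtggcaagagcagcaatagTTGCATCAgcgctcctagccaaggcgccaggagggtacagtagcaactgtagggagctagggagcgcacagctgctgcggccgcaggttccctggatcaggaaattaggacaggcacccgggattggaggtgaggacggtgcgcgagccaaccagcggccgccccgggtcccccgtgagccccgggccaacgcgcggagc
*Trib3*, chr2:152344028-152344057, minus strand: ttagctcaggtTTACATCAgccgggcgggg
In *Nupr1*, *Atf3*, *Chac1* and *Vldlr* the match reads TTGCATCA, the element on the opposite strand, and begins 110, 110, 193 and 200 bases before the start. The 30 bases shown for *Trib3* hold the match TTACATCA. *Vldlr* has 2 annotated windows and the match lies in the second. The median log2 ratio of serum depletion to GCDC was -1.13 in the 7 genes with the element and -0.70 in the 21 with a window and no match. *Cth* and *Aldh1l2*, the lowest of the group at -2.90 and -2.94, had no window and are in neither median. Among genes on the array outside and inside the group, 19 of 425 with the element (4.47%) and 2.77% of 12502 without it were more than 2-fold lower in serum depletion than in GCDC, with medians of -0.09 and -0.08.

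Of the sensors and the phosphatase at the head of the response, *Eif2ak1*, the heme-regulated kinase, had levels of 7.5 in serum depletion, 6.7 in GCDC and 64.0 in control BECs. It fell 8.53-fold and 9.55-fold, the deepest fall in the group on each array with the deposited levels, to signals 10.9 and 11.4 SD of the blanks above them. With normexp background correction its log2 ratios were -1.11 and -1.14, and *Aldh18a1* then lay lower on both arrays. *Eif2ak4*, the kinase that senses uncharged tRNA, was at 73.1, 54.9 and 60.1. *Ppp1r15a*, which encodes GADD34, the subunit that guides the phosphatase to eIF2, was at 158.9, 150.9 and 199.5. Neither of these lay 2-fold from control on a treated array, and *Ppp1r15a* passed 2-fold in GCDC in 1 of 10 alternative settings. In the list of 20 eIF2 kinases, eIF2 subunits, exchange factors and regulators measured, which holds these 3 genes, none rose on either array, 4 fell in serum depletion and 3 in GCDC, against 11.1% and 8.5% of all probes, with medians of -0.06 and -0.11. Under other scalings, filters and corrections 2 to 7 fell in GCDC. *Eif2s3x*, the gamma subunit of eIF2, had log2 ratios of -3.61 and -2.96. *Gcn1*, the partner that activates GCN2, had -3.57 and -2.47, and reached levels of 1.4 and 3, near the background.

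Of the 7 transcriptional regulators, serum depletion raised 2 and GCDC 4, against 13.5% and 12.9% of all probes. None fell, against 11.1% and 8.5%. *Nupr1*, a small chromatin-associated stress protein, had levels of 12877 in serum depletion, 8648 in GCDC and 939 in control BECs. These are rises of 13.7-fold and 9.21-fold, and the treated arrays differed by 1.49-fold. The study listed *Nupr1* among raised genes it chose on these arrays, so its fold is not independent evidence of a rise. *Ddit3*, which encodes CHOP, the factor linked to apoptosis under lasting stress, was at 748, 1267 and 340. It rose 2.20-fold and 3.73-fold, and its rise in serum depletion was under 2-fold in 5 of 10 alternative settings, with log2 ratios down to 0.54. *Cebpb*, a partner of ATF4 and CHOP, had levels of 238, 440.0 and 119, a rise of 3.69-fold in GCDC and a ratio of 1.998 in serum depletion, just inside the limit. *Atf5*, a regulator of the mitochondrial stress response, was at 87.4, 156 and 59.9 and rose 2.61-fold in GCDC, under 2-fold in 2 of 10 alternative settings.

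*Atf4* itself, the central factor of the response, had levels of 2010 in serum depletion, 3466 in GCDC and 2349 in control BECs. Its ratios to control were 0.856 and 1.48, within 2-fold on both arrays, and it stood 1.72-fold lower in serum depletion than in GCDC. In 3 of 10 alternative settings *Atf4* fell past 2-fold in serum depletion, with a log2 ratio down to -1.14, and in GCDC its log2 ratio ran from -0.33 to 0.63, so its side of control depended on the scaling. *Cebpg*, a C/EBP partner without an activation domain, was at 38.7, 47.8 and 35.6. *Atf3*, an early stress factor that can dampen transcription, was at 89.8, 197 and 150.5. Neither *Atf3* nor *Cebpg* left the 2-fold range around control with the deposited levels, but *Atf3* was 2.19-fold lower in serum depletion than in GCDC. This gap stayed past 2-fold in 8 of 10 alternative settings, with log2 ratios up to -0.73. With the deposited levels all 7 regulators were above control in GCDC, as were 63.3% of all probes. In serum depletion 5 were above control, as were 58.5% of all probes. Without scaling *Atf3*, *Cebpg* and *Atf4* were below control in GCDC, at log2 ratios of -0.26, -0.22 and -0.09. *Cebpg* was then also below control in serum depletion, at -0.33.

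Among the feedback and effector genes, all 5 had a lower level in serum depletion than in GCDC, as did 58.3% of all probes. *Chac1*, which degrades glutathione, had levels of 700 in serum depletion, 1961 in GCDC and 476 in control BECs. It rose 4.12-fold in GCDC, had a ratio to control of 1.47 in serum depletion, and was 2.80-fold lower in serum depletion than in GCDC. *Trib3*, a pseudokinase that feeds back on ATF4 and CHOP, was at 22.6, 74.2 and 46.0. It fell 2.04-fold in serum depletion, had a ratio to control of 1.61 in GCDC, and the treated arrays lay 3.28-fold apart. This gap stayed past 2-fold in 9 of 10 alternative settings, with a log2 ratio up to -0.79. *Vldlr*, a lipoprotein receptor raised by ATF4 under ER stress, had 68.0, 227 and 144, a fall of 2.12-fold in serum depletion and a ratio of 1.58 in GCDC. It was 3.34-fold lower in serum depletion than in GCDC. The falls of *Trib3* and *Vldlr* against control were each under 2-fold in 2 of 10 alternative settings. *Sesn2* and *Ddit4*, both brakes on the growth kinase mTORC1, were within 2-fold in every comparison of the deposited levels. *Sesn2* was at 237, 299 and 262, and *Ddit4* at 590, 826 and 822. In 3 of 10 alternative settings *Ddit4* fell past 2-fold in serum depletion, with a log2 ratio down to -1.13. In GCDC the side of control depended on the scaling for both, with log2 ratios of -0.46 to 0.26 for *Sesn2* and -0.71 to 0.08 for *Ddit4*.

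The secreted factors differed from one another. *Stc2*, stanniocalcin 2, a secreted glycoprotein of stressed cells, had levels of 651 in serum depletion, 459 in GCDC and 211 in control BECs. It rose 3.08-fold and 2.17-fold, and the rise in GCDC was under 2-fold in 5 of 10 alternative settings. *Fgf21*, a metabolic hormone, was at 3.9, 7.5 and 4.37, within 2-fold of control on each array and 5.70 SD above the blanks in serum depletion, near the background.

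The enzymes of cysteine supply differed between the treatments in opposite directions. Cystathionine gamma-lyase, encoded by *Cth*, releases cysteine from cystathionine, the product of cystathionine beta-synthase, encoded by *Cbs*. *Cth* had levels of 45.4 in serum depletion, 340 in GCDC and 78.9 in control BECs. It rose 4.31-fold in GCDC, had a ratio to control of 0.575 in serum depletion, and was 7.48-fold lower in serum depletion than in GCDC. *Cbs* was at 79.0, 19.3 and 21.1, a rise of 3.74-fold in serum depletion and a ratio of 0.913 in GCDC. It was 4.09-fold higher in serum depletion than in GCDC. Over 10 alternative settings the log2 ratio of *Cbs* in serum depletion went down to 0.98 against control and 1.02 against GCDC. *Asns*, asparagine synthetase, had 793, 1575 and 1264 and stood 1.99-fold lower in serum depletion than in GCDC, just inside the limit, and within 2-fold of control on both arrays. In 4 of 10 alternative settings *Asns* fell past 2-fold in serum depletion, down to -1.44 on the log2 scale, and in GCDC it ran from -0.53 to 0.39. *Aldh18a1*, which makes the proline precursor from glutamate, was at 43.3, 102 and 261. It fell 6.03-fold and 2.57-fold. *Aldh18a1* was also 2.35-fold lower in serum depletion than in GCDC, past 2-fold in 9 of 10 alternative settings.

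**Figure D3:**
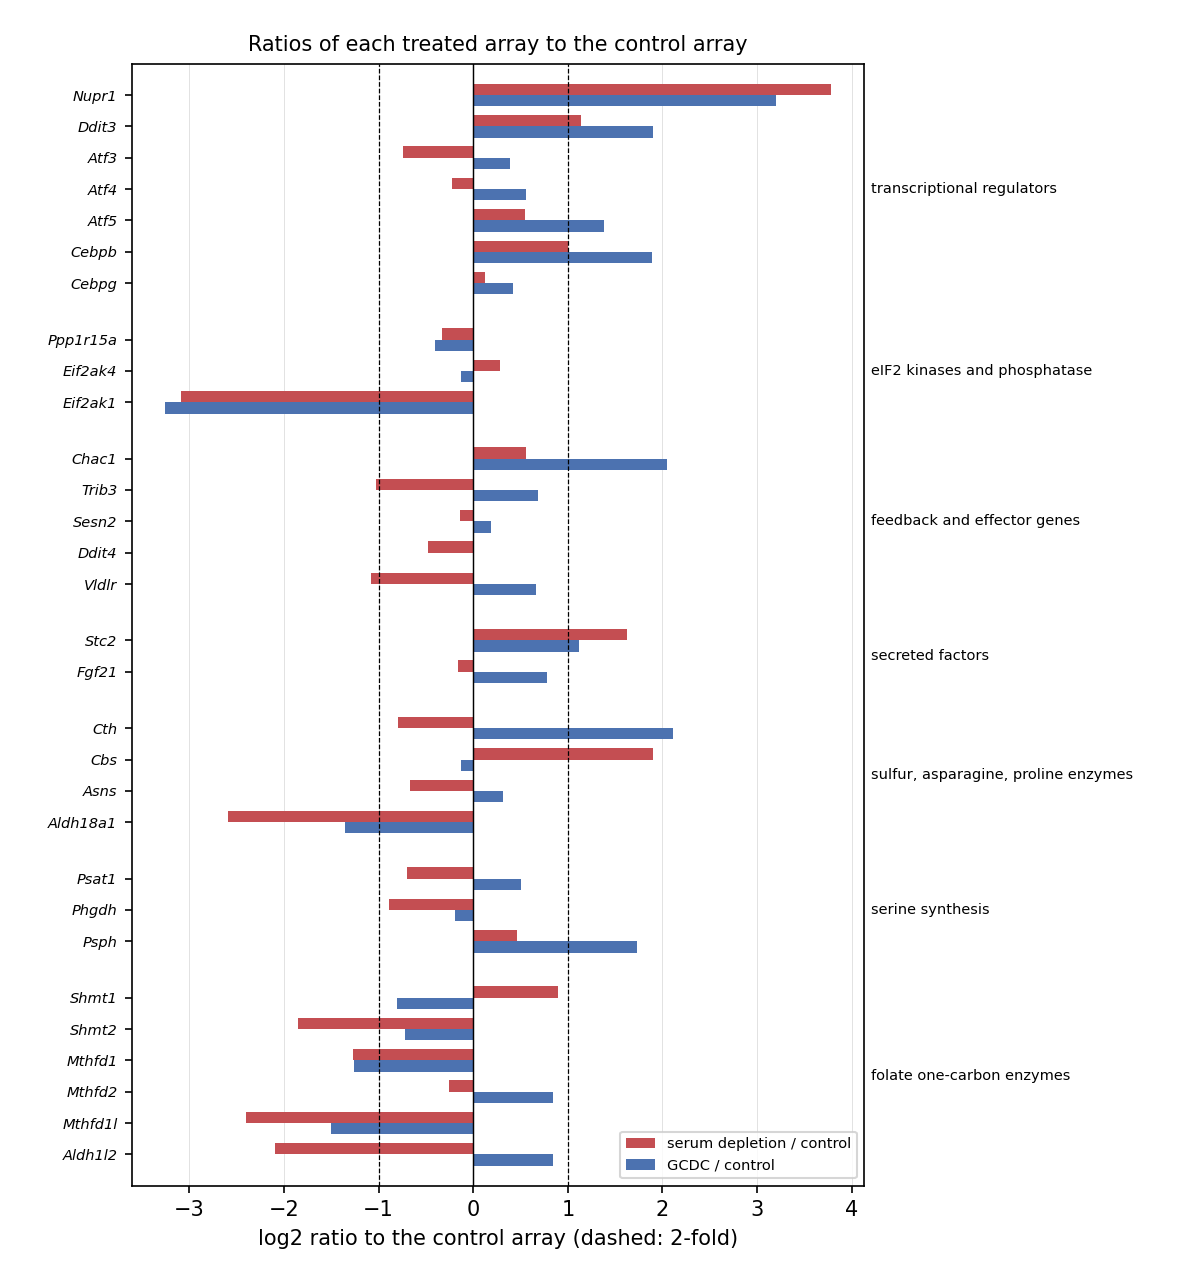
Log2 ratio of the serum depletion array and of the GCDC array to the control array for each measured gene (rows, grouped by role), with dashed lines at 2-fold. *Nupr1* has the longest bars to the right (3.78 in serum depletion) and *Eif2ak1* the longest to the left (-3.09 and -3.25), and bars point in opposite directions for 15 genes (8 to 15 under other scalings, filters and corrections). The share of all probes with opposite directions was not computed.

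Serine is made from a glycolytic intermediate in 3 steps, by PHGDH, PSAT1 and PSPH in turn. *Phgdh* had levels of 654 in serum depletion, 1059 in GCDC and 1213 in control BECs, with ratios to control of 0.539 and 0.873. *Psat1* was at 1429, 3304 and 2329, with ratios of 0.614 and 1.42, and was 2.31-fold lower in serum depletion than in GCDC. *Psph* had 533, 1285 and 387, with a rise of 3.32-fold in GCDC and a ratio of 1.38 in serum depletion. It was 2.41-fold lower in serum depletion than in GCDC. All 3 were lower in serum depletion than in GCDC, as were 58.3% of all probes. With the deposited levels *Psph* alone left the 2-fold range around control. In serum depletion *Phgdh* fell past 2-fold in 5 of 10 alternative settings and *Psat1* in 4 of 10, with log2 ratios down to -1.62 and -1.56. *Psat1* in GCDC ran from -0.39 to 0.58, so its side of control depended on the scaling.

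The folate enzymes carry the carbon unit that serine gives up, in mitochondria (SHMT2, MTHFD2, MTHFD1L, ALDH1L2) or in the cytosol (SHMT1, MTHFD1). None of the 6 rose on a treated array, against 13.5% of all probes in serum depletion and 12.9% in GCDC. In serum depletion 4 fell and in GCDC 2, against 11.1% and 8.5%. *Shmt2*, which splits serine in mitochondria, had levels of 124 in serum depletion, 273 in GCDC and 451 in control BECs. It fell 3.62-fold in serum depletion and had a ratio of 0.605 in GCDC, past 2-fold in 4 of 10 alternative settings. *Shmt2* was 2.19-fold lower in serum depletion than in GCDC, past 2-fold in 8 of 10 alternative settings. *Mthfd1l*, which releases formate, was at 10.1, 18.8 and 53.3 and fell 5.28-fold and 2.83-fold. With normexp background correction its log2 ratios were -0.86 and -0.65, within 2-fold. *Mthfd2*, the mitochondrial dehydrogenase that ATF4 turns on, had 488, 1044 and 581, with ratios to control of 0.839 and 1.80. It was 2.14-fold lower in serum depletion than in GCDC, under 2-fold in 3 of 10 alternative settings.

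*Aldh1l2*, which oxidises formyl-tetrahydrofolate in mitochondria, was at 3.5 in serum depletion, 26.8 in GCDC and 14.9 in control BECs. It fell 4.27-fold in serum depletion, had a ratio to control of 1.79 in GCDC, and stood 7.66-fold lower in serum depletion than in GCDC, from a signal 5.09 SD above the blanks. Of the cytosolic enzymes, *Mthfd1* had 82.4, 83.1 and 199 and fell 2.41-fold and 2.39-fold, with a ratio of 0.992 between the treated arrays. *Shmt1* was at 12.4, 3.8 and 6.67, 3.26-fold higher in serum depletion than in GCDC, from signals of 6.41 to 18.1 SD above the blanks. With normexp background correction and an offset of 50, the log2 ratio of serum depletion to GCDC was -0.61 for *Aldh1l2* and 0.27 for *Shmt1*, and *Aldh1l2* was at -0.32 against control in serum depletion.

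**Figure D4:**
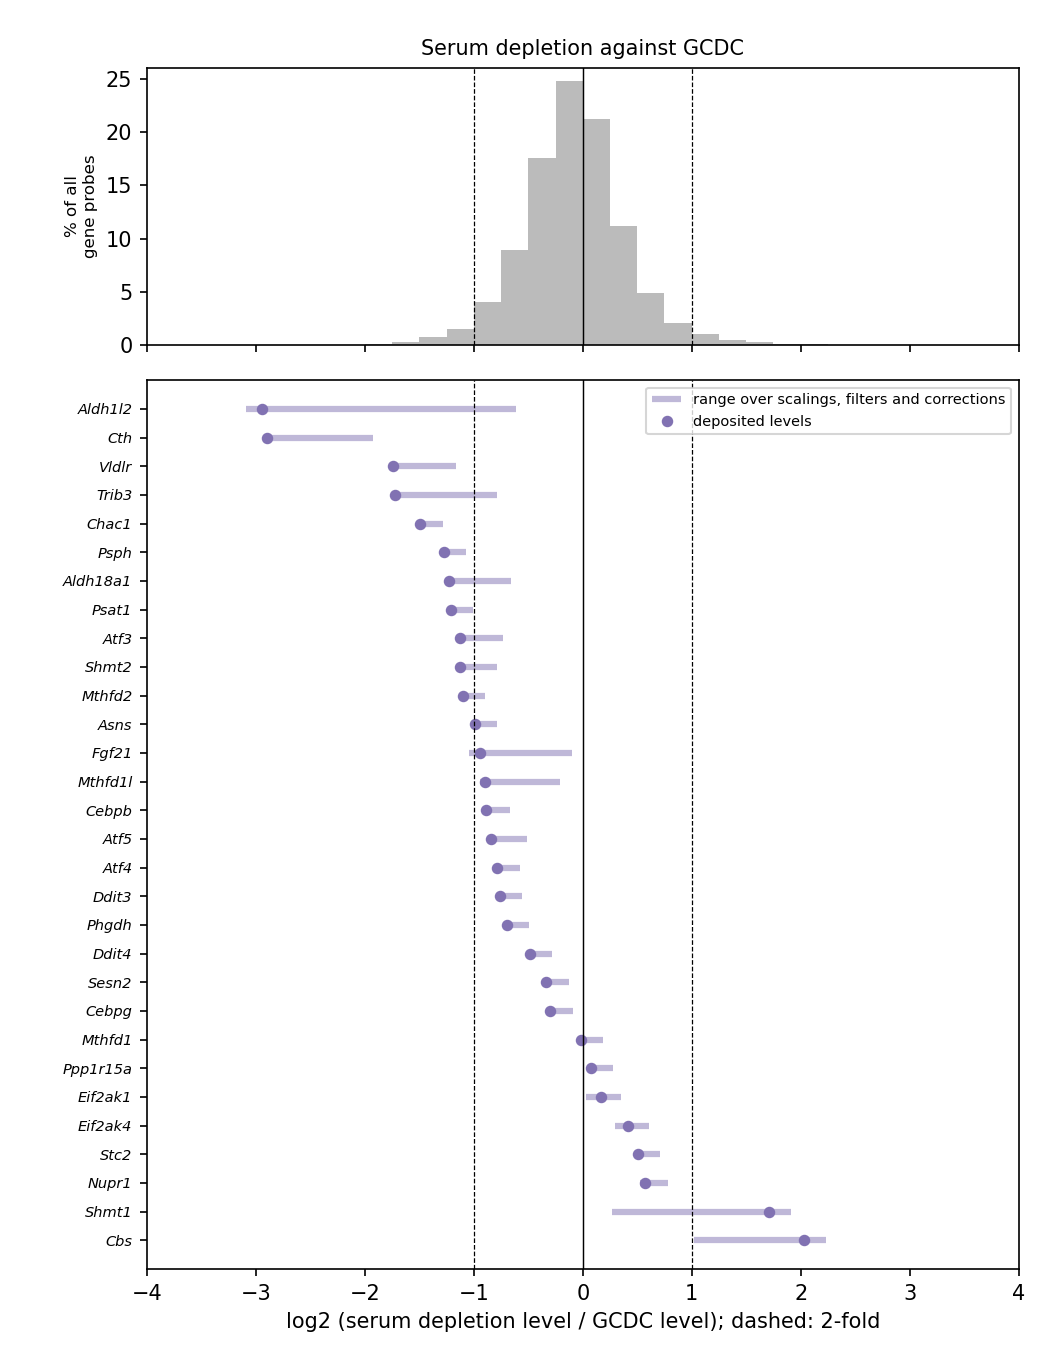
Upper panel, percentage of the 19751 gene probes valid on both treated arrays in each bin of the log2 ratio of serum depletion to GCDC. Lower panel, the same ratio for the 30 measured genes, with points for the deposited levels and bars for the range over 10 alternative scalings, filters and corrections. The points of 11 genes lie left of the dashed line at -1 and those of *Cbs* and *Shmt1* right of the line at 1.

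Other genes of the pathway were taken from lists. The shares of all probes that rose and fell, 13.5% and 11.1% in serum depletion and 12.9% and 8.5% in GCDC, stand beside each list's counts. These shares moved with the setting as well. Without scaling 5.91% rose and 19.7% fell in serum depletion, and 3.02% rose and 21.8% fell in GCDC. Of 33 other known targets of ATF4 and CHOP on the array, 1 of 32 rose and 10 fell in serum depletion, against 13.5% and 11.1% of all probes, with a median of -0.56. In GCDC 2 of 33 rose and 6 fell, against 12.9% and 8.5%, with a median of 0.09. Between the treated arrays 8 of 32 were lower in serum depletion and none higher, against 2.88% and 2.18% of all probes, with a median of -0.51 beside -0.08. Under other scalings, filters and corrections 7 to 17 fell in serum depletion, 4 to 11 fell in GCDC and 1 to 8 were lower in serum depletion than in GCDC, with medians of -1.01 to -0.31, -0.56 to 0.16 and -0.52 to -0.24. The 17 and 11 that fell were counted without scaling. The alanine transaminase *Gpt2* had levels of 8.7 in serum depletion, 33.6 in GCDC and 29.0 in control BECs, and the angiogenic factor *Vegfa* 49.3, 144 and 176. Large falls on both arrays were seen for *Sel1l*, an ER degradation adaptor, with log2 ratios of -3.77 and -3.32, *Slc38a2*, a transporter of neutral amino acids, with -2.95 and -2.51, and *Niban1*, with -2.76 and -1.95.

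The aminoacyl-tRNA synthetases, which load tRNA and are in part ATF4 targets, had 18 members measured. None rose, 4 fell in serum depletion and 3 in GCDC, against 11.1% and 8.5% of all probes, and none lay 2-fold apart between the treated arrays, against 5.06%. Under other scalings, filters and corrections 3 to 10 synthetases fell in serum depletion and 2 to 6 in GCDC. *Aars*, *Vars* and *Wars* had log2 ratios of -2.08 and -2.00, -1.93 and -1.77, and -1.89 and -1.11, and *Aars* was near the background on the treated arrays at 1.8 and 1.9. Of the other genes of the folate, glycine and methionine cycles, 2 of 30 rose and 3 fell in serum depletion, against 13.5% and 11.1% of all probes, and 2 of 29 rose and 3 fell in GCDC, against 12.9% and 8.5%. The falls were near the background, and under other scalings, filters and corrections 2 to 8 fell in serum depletion and 2 to 6 in GCDC. *Mtrr*, which reactivates methionine synthase, had -2.48 and -2.11, *Gldc*, the glycine decarboxylase, -2.18 and -1.33, and *Aldh1l1*, the cytosolic counterpart of *Aldh1l2*, -1.98 and -1.06. The genes that rose were *Mthfs*, which recycles formyl-tetrahydrofolate, with 1.44 and 1.40, and *Sfxn1*, a mitochondrial serine transporter, with 1.17 and 1.21. None of 29 lay 2-fold apart between the treated arrays, against 5.06% of all probes.

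Of 14 genes of proline, glutamate and cysteine metabolism, 4 rose and none fell in serum depletion, against 13.5% and 11.1% of all probes, and 5 rose and none fell in GCDC, against 12.9% and 8.5%. Under other scalings, filters and corrections 2 to 4 rose in serum depletion and 0 to 6 in GCDC, and up to 3 fell in serum depletion. The largest mean rises over both arrays were those of *Csad*, which makes taurine precursors, with log2 ratios of 1.82 and 1.66, *Ggct*, with 1.92 and 1.07, and *Gclm*, the modifier subunit of the first enzyme of glutathione synthesis, with 1.60 and 1.28. *Glul*, glutamine synthetase, had levels of 45.6 in serum depletion, 205 in GCDC and 87.2 in control BECs. It was the 1 gene of the 14 more than 2-fold apart between the treated arrays, against 5.06% of all probes. This count lay near the background.

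Among 23 genes of the ER unfolded protein response, of which *Sel1l* and *Herpud1* also count among the ATF4 and CHOP targets, 4 rose and 4 fell in serum depletion, against 13.5% and 11.1% of all probes, and 6 rose and 3 fell in GCDC, against 12.9% and 8.5%. Under other scalings, filters and corrections 2 to 6 rose and 3 to 7 fell in serum depletion, and 2 to 7 rose and 2 to 5 fell in GCDC. *Sdf2l1*, an ER chaperone partner, had log2 ratios of 2.01 and 2.29, and *Calr*, the lectin chaperone calreticulin, -2.05 and -1.87. The median log2 ratio of serum depletion to GCDC over the 23 genes was -0.10. *Herpud1*, an ER degradation factor, was at 248 in serum depletion beside 602 in GCDC. It was the 1 gene of the 23 more than 2-fold lower in serum depletion, against 2.88% of all probes. This count lay near the background. Of 12 mitochondrial chaperones and proteases, with *Atf5* among them, 2 rose and 3 fell in serum depletion, against 13.5% and 11.1% of all probes. In GCDC 3 rose and 1 fell, against 12.9% and 8.5%. None lay 2-fold apart between the treated arrays, against 5.06%. Under other scalings, filters and corrections 1 to 3 rose and 3 to 5 fell in serum depletion. In GCDC 1 to 4 then rose and 1 to 4 fell. *Hspe1*, the small partner of HSP60, had log2 ratios of 1.83 and 1.76. Since *Sesn2*, *Ddit4* and *Atf3* are also p53 targets, 14 other p53 targets were counted. Of these, 2 rose and 3 fell in serum depletion, against 13.5% and 11.1% of all probes. In GCDC 2 rose and 2 fell, against 12.9% and 8.5%. The shares that rose lay near the background. Under other scalings, filters and corrections 0 to 2 rose and 2 to 6 fell in serum depletion. In GCDC 1 to 2 then rose and 2 to 4 fell. *Gadd45a* was at 544 in serum depletion, 1274 in GCDC and 267 in control BECs. It was the 1 gene of the 14 more than 2-fold apart between the treated arrays, against 5.06% of all probes. This count lay near the background.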

How the data were processed

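Cultured mouse BECs were profiled with 3 one-colour arrays (3D-Gene, Cy5), 1 per condition as the labels give it, each with RNA pooled from 2 experiments. The authors scanned the arrays and deposited the intensity of each spot without background subtraction. They also deposited a table in which the blanks' mean had been taken off each intensity, with probes under 2 SD of the blanks left empty and each array at a median of 25. Control values there have more decimals than treated values. These levels were used. The recomputed levels, with blanks between the 5th and 95th percentiles, had the same valid probes on every array, with 3 marked GCDC spots left out. Scaling factors were 0.838, 0.964 and 0.615 for serum depletion, GCDC and control. Per array, 23473 gene probes and 2736 blanks were read.

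Probe names came from the platform annotation and gene identifiers (20690 with a symbol, 2783 without, 20556 matched by identifier). Where a gene had several probes, the one brightest on average was taken. Ratios were taken where both levels were valid, with a threshold of 2-fold. All measured members of the group are named. In other lists up to 3 genes with the largest changes on both treated arrays, and up to 2 more than 2-fold apart between them, are named. The members and lists were chosen with earlier results of these data known. Alternatives were recomputed levels, no scaling, equal 75th percentiles, a median from probes valid on every array, quantile normalization, cyclic loess, normexp with an offset of 50, no validity filter, a limit of 5 SD, the mean over probes, and thresholds of 1.5-fold and 4-fold. The steps were tested on simulated data. Python 3.11.15 with numpy 2.4.6, pandas 2.3.3 and matplotlib 3.10.9 was used, with limma 3.58.1 in R 4.3.3. Precision is limited by there being 1 array per condition.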

Additional observations from a re-analysis of the deposited data

Results flagged for a closer look

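With the deposited levels, in 9 genes the serum depletion array lay on one side of the control array and the GCDC array on the other, with the treated arrays more than 2-fold apart. The share of all probes that did so was not computed, so this count is not read as a trait of the group. Each condition was 1 array, so these differences were not tested. By the log2 ratio of serum depletion to GCDC, *Aldh1l2* was at -2.94, *Cth* at -2.90, *Vldlr* at -1.74, *Trib3* at -1.72, *Psat1* at -1.21, *Atf3* at -1.13 and *Mthfd2* at -1.10. The side of control depended on the scaling for 2 of them. *Psat1* in GCDC ran from -0.39 to 0.58 against control over 10 alternative settings, and *Atf3* from -0.26 to 0.46, so that both treated arrays then lay below control. Without scaling *Trib3* and *Vldlr* in GCDC were about level with control, at 0.04 and 0.01. In the opposite direction, *Cbs* was at 2.03 and *Shmt1* at 1.71. The signals of *Aldh1l2* in serum depletion and of *Shmt1* in GCDC were 5.09 and 6.41 SD above the blanks.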

How the results depend on the processing

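No paired analysis was possible because each condition was a single array without a replicate number. A count is given where it moved by more than 1.5 times, and a median where it moved by as much. In brackets is the share of all probes under the same setting. Genes that fell in serum depletion numbered 13 without scaling (19.7%), after quantile normalization (14.6%), after cyclic loess (13.1%) and at the 1.5-fold threshold (18.9%), and 4 at the 4-fold threshold (3.21%), against 8 (11.1%). Those that rose there numbered 2 after normexp (2.96%) and 1 at 4-fold (1.96%), against 4 (13.5%), and the median log2 ratio was -0.88 after cyclic loess, beside 0.02 over all probes. In GCDC 7 genes fell without scaling (21.8%) and 1 at 4-fold (2.08%), against 4 (8.5%), while 13 rose at 1.5-fold (29.4%) and 3 at 4-fold (1.27%), against 8 (12.9%). The GCDC median was -0.18 without scaling, beside -0.41 over all probes. In serum depletion against GCDC, the genes lower numbered 5 after normexp (0.365%), 19 at 1.5-fold (12.1%) and 2 at 4-fold (0.152%), against 11 (2.88%). Those higher numbered 1 after normexp (0.319%), 1 at 4-fold (0.319%) and 1 at a mean level of at least 25, a limit chosen after seeing the data (1.36%), against 2 (2.18%). The causes were not tested. Of the genes past 2-fold, 6 of 12 in serum depletion, 9 of 12 in GCDC and 6 of 13 between the treated arrays stayed so in the same direction under each of 10 other scalings, filters and corrections at that threshold. Taking the mean over probes changed nothing, since each gene had 1 probe. Neither did leaving out the validity filter or a limit of 5 SD, since the lowest signal of the group was 5.09 SD above the blanks. Recomputed levels were nearly those deposited. These settings are among the 10, so a number out of 10 overstates how steady a gene was. Signal over background limits *Aldh1l2*, *Shmt1* and *Fgf21*, the 3 genes under 10 SD of the blanks on an array.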
